A study of Mus musculus with 20 samples.

Results

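The mitochondrial ribosomal proteins are the genes whose symbols begin with Mrpl or Mrps and a number, and 78 of them were found among the 20972 gene symbols of the array, 49 named for the large subunit and 29 for the small. They were chosen by name alone, and each was represented by its brightest probe over the 20 arrays. All but 1 of the 78 reached the signal limit of 6 log2 units in at least 1 group, so that 77 were tested among 15102 genes. The exception was Mrpl21, whose probe lay between 2.07 and 6.33 log2 units and was well above background on 2 of the 20 arrays, while every other member was so on all 20.

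Mitochondria carry their own ribosome, which translates the few proteins encoded in mitochondrial DNA, all of them core subunits of the respiratory chain complexes and of ATP synthase. Its proteins are made in the cytosol from nuclear genes and imported, and they assemble on the ribosomal RNAs of mitochondrial DNA. Many have a counterpart in bacteria, and the others arose with mitochondria.

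The study asked how the HIV-1 protein Tat and repeated methamphetamine (Meth) act together on gene expression in the mouse brain. Male C57BL/6J mice that had a Tet-binding protein driven by the GFAP promoter and no Tat (Tat-) were compared with mice that also carried a Tat transgene under the TRE promoter (Tat+), so that Tat is induced by doxycycline in GFAP-expressing cells. All mice received doxycycline at 100 mg/kg for 7 days, with either saline (0.9%) or Meth at 2 mg/kg, which gave 4 groups of 5 mice. They are named Tat-/Sal (label Tat-Meth-), Tat-/Meth (label Tat-Meth+), Tat+/Sal (label Tat+Meth-) and Tat+/Meth (label Tat+Meth+). By the methods, all of them also received a challenge of 1 mg/kg Meth after 7 days of abstinence, also the saline groups, and the caudate putamen was taken 1 h later from mice of 3 to 5 months. The labels differ here, giving an age of 6 to 7 weeks, the left hemisphere as the tissue, and sampling 24 h past the final injection.

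Each mouse had 1 one-colour array, and the arrays lay on 3 slides, each scanned once. Slide 1 held the 5 Tat-/Meth arrays and no others, slide 2 the 5 Tat-/Sal arrays with Tat+/Meth replicates 1 to 3, and slide 3 the 5 Tat+/Sal arrays with Tat+/Meth replicates 4 and 5. In every comparison with Tat-/Meth the group and the slide therefore cannot be told apart. The bright corner control spots were at 14.66 to 15.06 log2 units on slide 1 and at 16.80 to 17.42 on the other slides, and the 75th percentile to which the arrays were scaled was 9.64 to 9.79 on slide 1 and 9.75 to 10.34 elsewhere. All 8 striatum markers were well above background on every array, against 2 of the 5 cortex markers and 3 of the 5 choroid plexus markers. Fewer cells of a type and less RNA per cell cannot be told apart in tissue RNA.

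The effect of Meth in the absence of Tat was read from Tat-/Meth against Tat-/Sal. On scaled values 34 of the 77 members were higher in Tat-/Meth and 6 were lower at an adjusted p under 0.05, and 37 did not pass. Over all genes tested 35% were higher and 15.3% lower, so that the members' counts stood beside a background that had itself moved. The median log2 fold change of the members was 0.16, against 0.14 for all 15102 genes, a difference of 0.016. Without scaling between arrays the direction turned, with 0 members higher and 41 lower, a member median of -0.27 and a median of all genes of -0.285 (limma, the same threshold). The members' median thus lay close to the median of all genes on either scale, and several single members are given below also relative to it.

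The counts were also taken by subunit and by origin, to be read beside 35% of all genes higher and 15.3% lower. Of 48 large subunit genes tested 22 passed higher and 5 lower, with a median log2 fold change of 0.16, and of 29 small subunit genes 12 passed higher and 1 lower, with a median of 0.14. Only 1 member, Mrpl2, passed with a change above 2-fold, against 6.85% of all genes. Members with a bacterial counterpart and those specific to mitochondria had 17 higher and 5 lower of 45 (median 0.14) and 17 higher and 1 lower of 32 (median 0.16), in this order. No difference between these classes was tested, and their directions are those of scaled values.

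**Figure D1:**
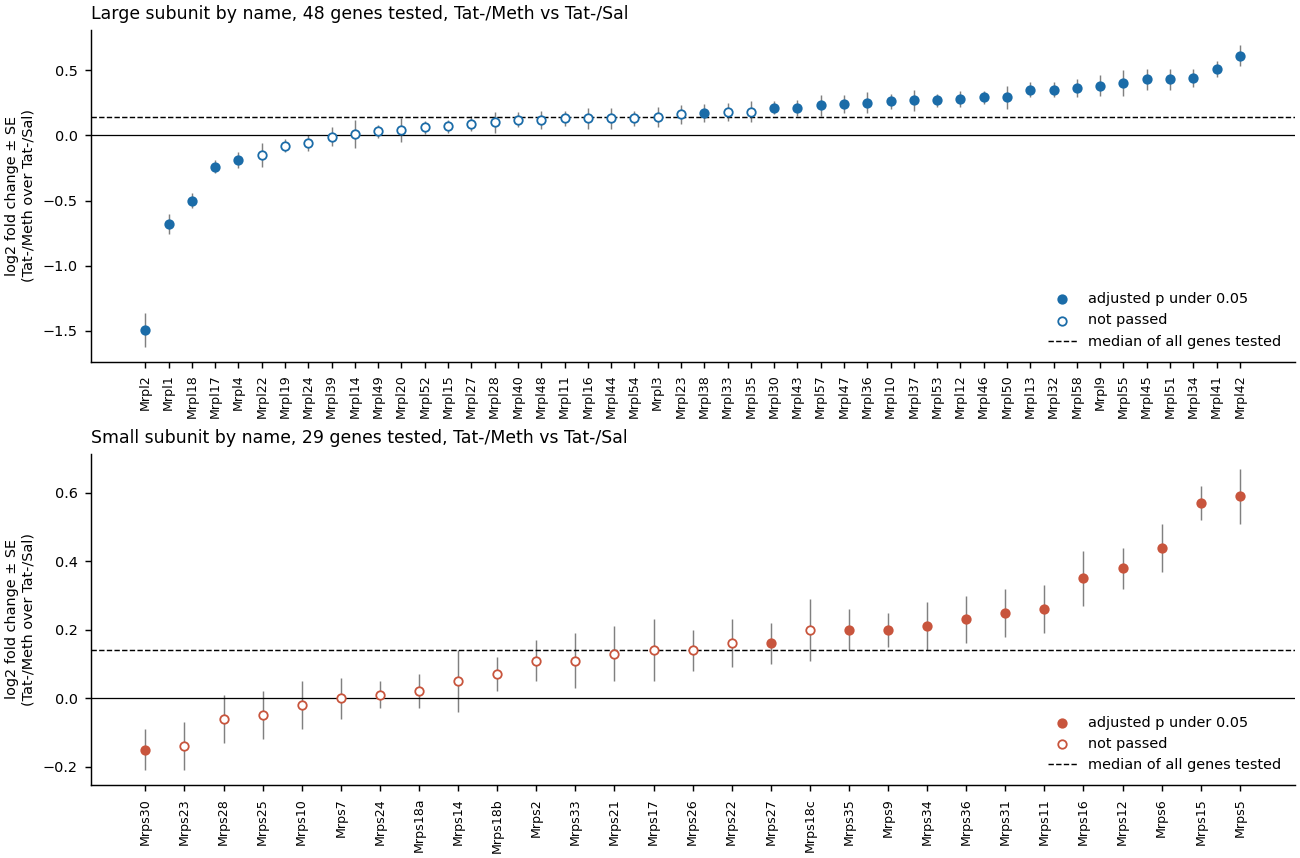
The log2 fold change of every member tested, Tat-/Meth over Tat-/Sal, with its SE (bars), for 48 large subunit genes (above) and 29 small subunit genes (below) on separate scales. Filled points passed an adjusted p under 0.05, and the dashed line is the median of all genes, 0.14; Mrpl2, Mrpl1 and Mrpl18 lie far below the rest, and without scaling between arrays all points shift down together.

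Among the large subunit genes the lowest value belonged to Mrpl2, whose product lies at the peptidyl transferase centre and is among the most conserved ribosomal proteins. Its log2 intensities were 13.83, 13.72, 13.61, 13.54 and 13.72 in Tat-/Meth and 15.15, 15.21, 15.19, 15.04 and 15.29 in Tat-/Sal. They were 15.15, 15.07, 15.17, 15.94 and 15.64 in Tat+/Sal and 15.33, 15.32, 15.28, 15.67 and 15.44 in Tat+/Meth. All 5 Tat-/Meth arrays were below every other array, and the highest values were those of Tat+/Sal replicates 4 and 5 and Tat+/Meth replicate 4, all on slide 3. Mrpl2 fell by 1.49 ± 0.13 (SE) on the log2 scale in Tat-/Meth, a 2.81-fold change, with an adjusted p of 4.34e-08. Relative to the median of all genes the difference was -1.63, and without scaling it was -1.91.

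Mrpl1, whose bacterial counterpart forms the stalk beside the tRNA exit site, and Mrpl18, a protein of the central protuberance, were the next lowest. For Mrpl1 the values were 8.92, 9.06, 8.78, 8.83 and 9.13 in Tat-/Meth and 9.55, 9.73, 9.61, 9.68 and 9.56 in Tat-/Sal, a fall by 0.68 ± 0.08 (SE, adjusted p = 1.63e-06). In the Tat+ groups Mrpl1 lay between 9.34 and 9.77 with saline and between 9.47 and 9.64 with Meth, above all Tat-/Meth arrays. Mrpl18 had 13.16, 13.15, 13.08, 13.17 and 13.05 in Tat-/Meth and 13.62, 13.71, 13.58, 13.51 and 13.70 in Tat-/Sal, a fall by 0.50 ± 0.06 (SE, adjusted p = 2.79e-06). In neither gene did the Tat-/Meth and Tat-/Sal arrays overlap. Both falls were larger without scaling (-1.10 and -0.92), and with scaling to the median Mrpl18 was at -0.38 and did not pass. Relative to the median of all genes Mrpl1 and Mrpl18 were at -0.82 and -0.64. Members whose arrays are said not to overlap, here and elsewhere, were picked for a large change or a small p. The share of all genes without overlap was not counted.

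By the brightest probe of each gene the remaining falls were small, and a larger fall of a dimmer Mrps33 probe is given below. Mrpl17 and Mrpl4, both near the exit tunnel for the nascent chain, were at -0.24 and -0.19. The dimmer probe of Mrpl4, fitted on its own, was at -0.03 and did not pass (limma, adjusted p = 0.802). Mrps30, which is named for the small subunit but sits in the large one, had means of 12.51 ± 0.07 (SD, n = 5) in Tat-/Meth and 12.66 ± 0.04 in Tat-/Sal and a log2 fold change of -0.15 ± 0.06 (SE, adjusted p = 0.038). It did not pass when Tat-/Meth replicate 3 or 5 or Tat-/Sal replicate 2, 3 or 5 was left out (-0.13 to -0.15).

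The highest large subunit values belonged to Mrpl42 and Mrpl41, both specific to mitochondria, and to Mrpl34, which has a bacterial counterpart. Mrpl42 had 12.09, 12.10, 11.89, 11.93 and 11.85 in Tat-/Meth and 11.41, 11.51, 11.25, 11.41 and 11.26 in Tat-/Sal, a log2 fold change of 0.61 ± 0.08 (SE, adjusted p = 8.37e-06). The values of its Tat+ groups, 11.33, 11.35, 11.09, 11.20 and 11.11 with saline and 11.14, 11.50, 11.10, 11.15 and 11.21 with Meth, lay below all Tat-/Meth arrays. Mrpl41 was at 14.60 to 14.81 in Tat-/Meth and at 14.15 to 14.28 in Tat-/Sal (0.51 ± 0.06, adjusted p = 1.22e-06). Mrpl34 was at 12.73 to 12.94 and 12.31 to 12.45 (0.44 ± 0.07, adjusted p = 0.000101). In all of these, picked for their high values, the Tat-/Meth and Tat-/Sal arrays did not overlap.

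The highest small subunit values belonged to Mrps5, Mrps15 and Mrps6, which all have bacterial counterparts. Mrps5 had 10.97, 11.09, 10.99, 11.18 and 10.77 in Tat-/Meth and 10.42, 10.53, 10.37, 10.45 and 10.26 in Tat-/Sal, a log2 fold change of 0.59 ± 0.08 (SE, adjusted p = 1.09e-05). In Mrps15 the values were 12.36, 12.23, 12.24, 12.34 and 12.17 and 11.70, 11.66, 11.75, 11.72 and 11.64, with a log2 fold change of 0.57 ± 0.05 and the smallest adjusted p of the members, 1.37e-08. Mrps6 was at 13.42 to 13.70 and 13.04 to 13.15 (0.44 ± 0.07, adjusted p = 4.09e-05). Again no Tat-/Meth array of these members, also picked for their high values, overlapped with Tat-/Sal. The 6 large and small subunit genes with the highest values stayed positive without scaling, at 0.01 to 0.18, but none of them passed there, whereas relative to the median of all genes they lay at 0.30 to 0.47 on scaled values and at 0.30 to 0.47 without scaling.

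**Figure D2:**
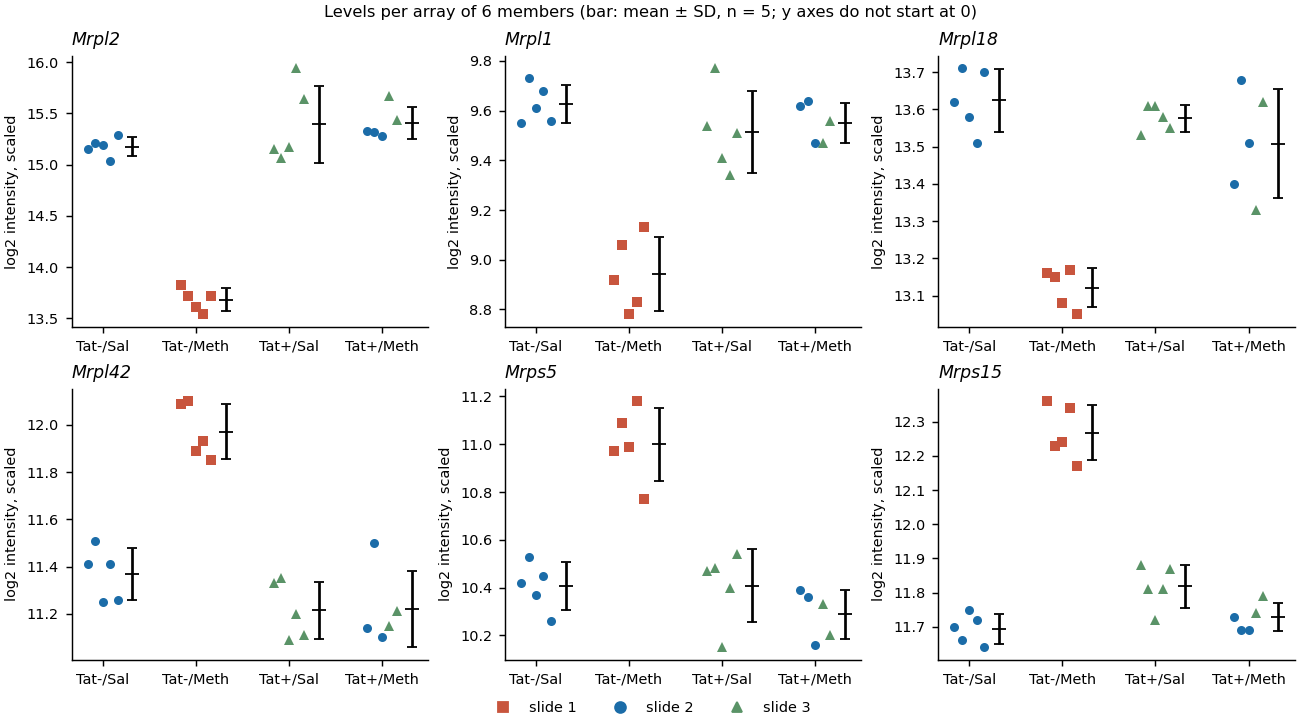
The log2 intensity, scaled to the 75th percentile, of 6 members on each of the 20 arrays by group, with the slide as colour and shape and the group mean ± SD beside the points (n = 5). These members were among those picked for the largest changes. The Tat-/Meth arrays, all on slide 1, lie apart from every array of the other groups, below them for Mrpl2, Mrpl1 and Mrpl18 and above them for Mrpl42, Mrps5 and Mrps15; the rises of the latter 3 did not pass without scaling.

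Several members with particular roles were in between. Mrpl12, of the stalk that binds translation factors, had a log2 fold change of 0.28 ± 0.06 (SE, adjusted p = 0.000615), and Mrps12, of the decoding centre, one of 0.38 ± 0.06 (adjusted p = 7.26e-05). Mrpl58, a peptidyl-tRNA hydrolase that rescues stalled ribosomes, was at 0.36 ± 0.07 (adjusted p = 0.000571). Without scaling these 3 turned to -0.14, -0.04 and -0.07. Relative to the median of all genes they lay at 0.14, 0.24 and 0.22, both on scaled values and without scaling. The paralogs Mrps18a, which sits in the large subunit, Mrps18b and Mrps18c were at 0.02, 0.07 and 0.20 and did not pass (adjusted p = 0.766, 0.264 and 0.0837). The dimmer probe of Mrps18b, fitted on its own, was at 0.25 and did pass (limma, adjusted p = 0.00536). Mrps36, since recognised as a subunit of the 2-oxoglutarate dehydrogenase complex, was at 0.23 ± 0.07 (adjusted p = 0.016).

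Some markers of the tissue moved in the same comparison, and their part in the result was not tested. Of 37 markers tested 7 were higher and 3 lower on scaled values, or 27% beside 35% of all genes higher and 15.3% lower. Without scaling every value shifts by -0.42, and of the 7 higher markers only Gja1 (0.42) and the red blood cell marker Alas2 (0.47) stayed positive. Of the 8 striatum markers 2 were lower (Penk -0.30, Rgs9 -0.24), and the summed level of the list was 19.74 to 19.83 log2 units in Tat-/Meth and 19.80 to 20.04 in Tat-/Sal. Of the 5 astrocyte markers 3 were higher on scaled values, led by Gja1 at 0.84, with a summed level of 15.31 to 15.60 against 15.16 to 15.23. Of the 5 oligodendrocyte markers 2 were higher, with a summed level of 17.88 to 18.22 against 17.71 to 18.08. Of the 5 microglia markers 1 was lower (15.51 to 15.65 against 15.53 to 15.73), and 1 of 3 endothelium markers (13.18 to 13.74 against 12.94 to 13.31) and 1 of 3 red blood cell markers (15 to 16.61 against 14.71 to 15.65) were higher. No cortex or choroid plexus marker passed, with 4 of each tested, and their summed levels were 9.14 to 10.08 against 9.32 to 11.09 and 12.42 to 13.89 against 12.14 to 14.06.

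Within the groups the members varied together from array to array. Over residuals around the group means on 20 arrays the median Pearson correlation between 2 members was 0.39, and 83.7% of the pairs were above 0, while the median over all pairs of genes was 0.032. The same median was higher within the complex I subunits (0.57) and within the cytosolic ribosomal proteins (0.53). Large subunit genes correlated with each other (0.39) as they did with small subunit genes (0.40). Within slides the median was 0.40 on slide 1 (5 arrays), 0.34 on slide 2 (8 arrays) and 0.56 on slide 3 (7 arrays), against 0.030, 0.016 and 0.078 for all pairs of genes. The points are arrays that share slides, labelling and scaling, and the genes are not independent, so this is a description without a test. The background takes in genes down to the signal limit of 6 log2 units, and genes alike in signal were not compared.

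The shared part was small in size. The mean of the members deviated from its group mean by -0.099 on Tat+/Meth replicate 4, where 7 of the 77 members lay above their group mean, and by 0.087 on Tat+/Sal replicate 2, where 69 did. Complex I subunits, whose mitochondrial core is a product of this ribosome, deviated by -0.14 and 0.093 on these arrays, and their median correlation with the members was 0.47. It was 0.30 between the members and the cytosolic ribosomal proteins, 0.23 between the members and 66 other genes of mitochondrial translation, and 0.10 between the members and all other genes. The median SD within groups was 0.10 log2 units for the members and 0.15 for all genes, again without a comparison to genes alike in signal.

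**Figure D3:**
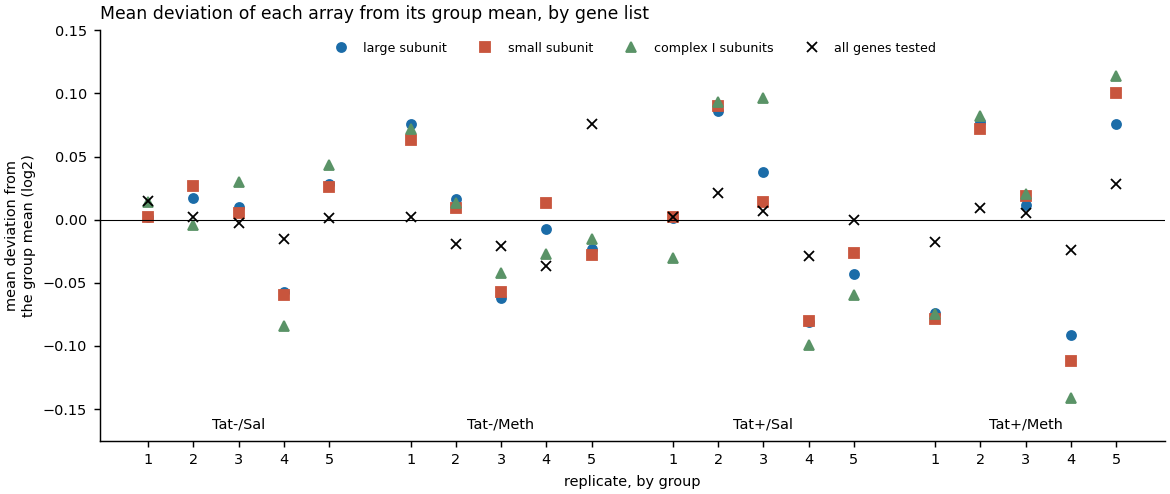
The mean deviation of each array from the mean of its group (log2), by replicate within the 4 groups, for the large subunit, the small subunit, complex I subunits and all genes tested. The large and small subunit points lie together on every array and range from -0.11 to 0.10, and all genes range from -0.037 to 0.076.

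Single members followed the others to different degrees. The correlation of a member with the mean of the other members had a median of 0.70 and was above 0.5 for 53 of the 77. It was highest for Mrps7 (0.95), Mrpl20 (0.93) and Mrpl22 (0.92). It was below 0 for 4 members, Mrpl2 (-0.45), Mrpl28 (-0.19), Mrps5 (-0.18) and Mrpl9 (-0.07), and Mrps15 was at 0.04. Thus the lowest member of Tat-/Meth against Tat-/Sal, Mrpl2, and the highest small subunit members, Mrps5 and Mrps15, were among those that followed the family least, while Mrpl18, Mrpl34 and Mrps6 followed it at 0.79, 0.79 and 0.78. The value also depended on the probe. For Mrpl39, Mrps14 and Mrps18b it was 0.74, 0.76 and 0.67 with the brighter probe and 0.07, 0.11 and -0.11 with the dimmer. It was higher with the dimmer probe in Mrpl4, Mrpl10, Mrpl27, Mrpl40 and Mrps17, as in Mrpl40 with 0.86 against 0.62. For Mrpl2, Mrps5 and Mrps15 no such check could be made, and the part of signal level was not tested.

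The promoters are shown because the members, spread over 17 chromosomes with 11 on chromosome 11 and 8 on chromosome 17, share features there. Of the 78 members 69 had a window in the RefSeq promoter table (GRCm38.p6, 250 bases before to 50 after a start). The windows were searched on both strands for GCATGCG, a core of NRF1 sites that overlaps its own reverse complement by 6 letters, for CCGGAAG, a site of ETS factors such as GABP, and for AAGATGG, a site of YY1, of which the latter can share the letters AAG with the ETS site. NRF1, GABP and YY1 are known as activators of nuclear genes for mitochondria. The NRF1 core was in 11.6% of the member promoters and 4.01% of the promoters of all 27025 genes in the table, the ETS site in 37.7% and 9.93%, and the YY1 site in 18.8% and 7.28%. At least 1 of them was in 55.1% of the members and 19.3% of all genes. The median GC content was 58.7% against 52.7%, and the median number of CpG per window was 21 against 7. The NRF1 core and the ETS site each hold a CpG, and the background is every gene in the promoter table, tested or not. Promoters alike in CpG were not compared. A match is a description of the letters and not a site of binding.

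The following windows belong to the member that fell most, to another that fell, to the member that was highest, to the member of the decoding centre and to a pair of members that share a promoter; capitals mark motif matches, in gene direction.
Mrpl2 (chr17:46645971-46646270, plus strand): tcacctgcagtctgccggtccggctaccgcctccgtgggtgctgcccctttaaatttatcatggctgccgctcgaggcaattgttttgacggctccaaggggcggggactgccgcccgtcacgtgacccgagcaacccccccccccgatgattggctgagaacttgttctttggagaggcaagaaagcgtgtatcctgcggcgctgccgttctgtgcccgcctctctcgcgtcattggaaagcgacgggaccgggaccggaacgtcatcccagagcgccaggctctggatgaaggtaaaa
Mrpl18 (chr17:12916042-12916341, minus strand): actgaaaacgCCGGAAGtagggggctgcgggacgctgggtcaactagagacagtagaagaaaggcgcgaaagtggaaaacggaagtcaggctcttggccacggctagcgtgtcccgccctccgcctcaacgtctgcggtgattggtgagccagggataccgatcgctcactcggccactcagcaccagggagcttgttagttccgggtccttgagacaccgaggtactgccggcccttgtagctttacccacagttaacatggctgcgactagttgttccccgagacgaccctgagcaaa
Mrpl42 (chr10:95501900-95502199, minus strand): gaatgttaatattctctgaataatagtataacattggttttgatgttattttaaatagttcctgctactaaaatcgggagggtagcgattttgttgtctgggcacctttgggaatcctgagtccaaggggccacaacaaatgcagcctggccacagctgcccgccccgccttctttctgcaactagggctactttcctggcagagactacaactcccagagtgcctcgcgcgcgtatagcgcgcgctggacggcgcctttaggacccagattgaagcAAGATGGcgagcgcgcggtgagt
Mrps12 (chr7:28741772-28742071, minus strand): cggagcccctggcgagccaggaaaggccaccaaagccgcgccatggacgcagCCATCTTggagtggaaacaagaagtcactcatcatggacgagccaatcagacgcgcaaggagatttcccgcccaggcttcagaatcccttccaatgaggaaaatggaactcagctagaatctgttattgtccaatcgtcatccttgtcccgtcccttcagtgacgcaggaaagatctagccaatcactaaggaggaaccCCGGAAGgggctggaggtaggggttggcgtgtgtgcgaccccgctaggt
Mrps11 (chr7:78782881-78783180, plus strand): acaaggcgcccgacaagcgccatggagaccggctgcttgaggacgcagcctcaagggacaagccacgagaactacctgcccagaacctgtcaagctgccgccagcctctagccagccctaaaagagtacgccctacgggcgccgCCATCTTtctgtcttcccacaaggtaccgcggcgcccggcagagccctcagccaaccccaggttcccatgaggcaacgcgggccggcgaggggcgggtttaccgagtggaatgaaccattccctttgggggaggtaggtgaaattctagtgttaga

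The window of Mrpl2, the first of several for this gene, held no match, that of Mrpl18 an ETS site, that of Mrpl42 a YY1 site just after the start, that of Mrps12 an ETS site at the start and a YY1 site on the other strand, and that of Mrps11 a YY1 site on the other strand. By the change in Tat-/Meth against Tat-/Sal, 16 of 30 members that passed higher, 2 of 5 that passed lower and 19 of 33 that did not pass held at least 1 motif. Many members start head to head with another gene, as 24 of the 69 (34.8%) had a window overlapping that of another gene on the opposite strand, against 11.9% of all genes. Mrps11 and Mrpl46 are the only such pair within the family. On scaled values both rose in Tat-/Meth against Tat-/Sal (by 0.26, adjusted p = 0.00556, and 0.29, adjusted p = 0.000243), and without scaling they were at -0.16 and -0.13. Over the 19 pairs with both genes tested the correlation of the residuals ranged from -0.33 to 0.86, with a median of 0.32 and 4 pairs below 0, and Mrps11 with Mrpl46 was the highest. Mrps12 shares its window with Sars2, the mitochondrial seryl-tRNA synthetase, and their residuals correlated at 0.77, yet Sars2 had a log2 fold change of 0.05 (adjusted p = 0.777) beside 0.38 for Mrps12. Mrpl2 starts opposite Klc4, which was at -0.06 (adjusted p = 0.53, residual correlation 0.13), and Mrpl18 opposite Tcp1, which was at 0.15 (adjusted p = 0.133, residual correlation 0.06). These pairs were chosen after their values were seen.

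The 22 members with 2 probes show how far a value depends on the probe. In Tat-/Meth against Tat-/Sal both probes had the same sign in 10 of them. They passed in opposite directions for Mrpl10, of the base of the factor-binding stalk (0.26, adjusted p = 0.00227, and -0.19, adjusted p = 0.0134), and for Mrps36 (0.23, adjusted p = 0.0173, and -0.17, adjusted p = 0.0303). The mean over probes was 0.03 for Mrpl10 and 0.03 for Mrps36 and passed for neither. In Mrps23 the brighter probe was at -0.14 (adjusted p = 0.0977) and the dimmer one at 0.66 (adjusted p = 1.37e-06), and in Tat+/Meth against Tat-/Meth they passed in opposite directions, at 0.27 and -0.73. In Mrps33 the brighter probe was at 0.11 (limma, adjusted p = 0.277) and the dimmer one at -0.66 (adjusted p = 3.03e-06). In Mrps25 the brighter probe was at -0.05 (limma, adjusted p = 0.628) and the dimmer one at 0.52 (adjusted p = 0.00335). Mrpl41 had its value of 0.51 from the brighter probe, while the dimmer one was at -0.01 (adjusted p = 0.913). The correlation with the mean of the other members was 0.67 for the brighter and -0.09 for the dimmer probe of Mrpl41, and 0.17 and -0.25 for those of Mrps23. Mrpl2, Mrpl1, Mrpl18, Mrpl42, Mrps5 and Mrps15 each had 1 probe, so that this check could not be made for them.

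**Figure D4:**
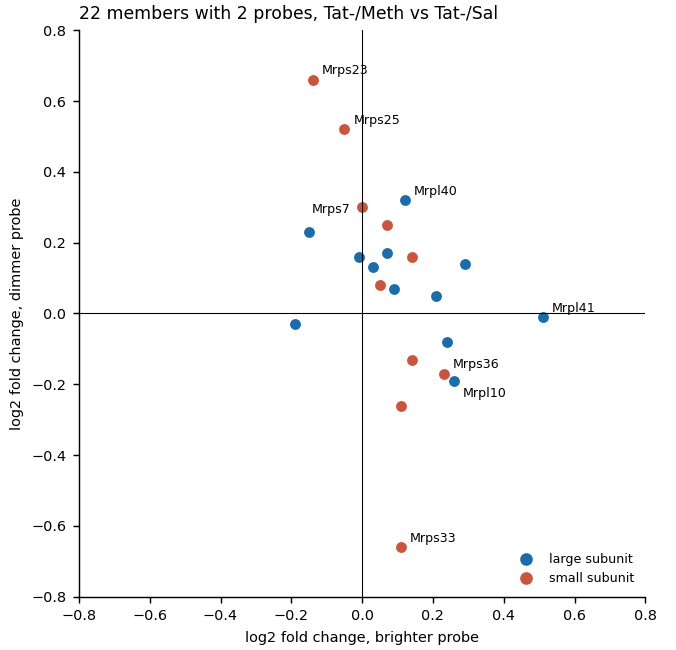
The log2 fold change of Tat-/Meth over Tat-/Sal for the brighter probe (horizontal) and the dimmer probe (vertical) of the 22 members with 2 probes, each probe fitted on its own. Both probes share their sign in 10 members, and the points farthest from agreement are Mrps23, Mrps25, Mrps33 and Mrpl41.

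The effect of Meth in the presence of Tat was read from Tat+/Meth against Tat+/Sal. No member passed, as no gene of the 15102 did (0.0%), and the members' log2 fold changes lay between -0.29 and 0.15 with a median of -0.023. At an unadjusted p under 0.05 there were 9 members beside 12.2% of all genes, with limma, and 10 beside 11% with the methods' t-test. The smallest p belonged to Mrpl28, which has a bacterial counterpart, and to Mrpl19. Mrpl28 had 11.41, 11.35, 11.55, 11.64 and 11.44 in Tat+/Meth and 11.72, 11.88, 11.68, 11.72 and 11.81 in Tat+/Sal, groups that did not overlap, and a log2 fold change of -0.29 ± 0.08 (SE, adjusted p = 0.218). Mrpl19 was at 11.45 to 11.57 and 11.56 to 11.76 (-0.19 ± 0.05, adjusted p = 0.219). With slide as a block, and within slide 3, no member passed either.

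The effect of Tat in mice given Meth was read from Tat+/Meth against Tat-/Meth, which shares the Tat-/Meth arrays and slide 1 with the first comparison. On scaled values 41 members were lower and 7 higher, against 38.5% and 16% of all genes, and the member median was -0.18 beside -0.15 for all genes. Without scaling 25 were higher and 1 lower, with a member median of 0.16 beside 0.19 for all genes. Mrpl2 was the only member that passed with a change above 2-fold, as 7.22% of all genes did. It was at 1.72 ± 0.13 (SE, adjusted p = 5.79e-09), followed by Mrpl1 at 0.61 ± 0.08 (adjusted p = 5.16e-06). The lowest were Mrpl42 at -0.75 ± 0.08 (adjusted p = 5.59e-07) and Mrps5 at -0.71 ± 0.08 (adjusted p = 1.11e-06), of which Mrps5 did not pass without scaling (-0.37). No Tat+/Meth array of these 4 genes, picked for the size of their change, overlapped with Tat-/Meth.

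The effect of Tat with saline was read from Tat+/Sal against Tat-/Sal. Only Mrpl38, a protein of the central protuberance specific to mitochondria, passed, beside 0.768% of all genes higher and 0.649% lower. It was below 2-fold, and 0.0199% of all genes passed with a change above 2-fold. Mrpl38 had 11.32, 11.38, 11.40, 11.50 and 11.59 in Tat+/Sal and 10.96, 11.10, 11.27, 11.08 and 11.19 in Tat-/Sal, a log2 fold change of 0.32 ± 0.07 (SE, adjusted p = 0.0336). All Tat+/Sal arrays were above all Tat-/Sal arrays, and the Tat-/Meth and Tat+/Meth values, 11.21 to 11.33 and 11.20 to 11.45, lay between and across them. The call was lost when Tat-/Sal replicate 1, 2 or 4 or Tat+/Sal replicate 4 or 5 was left out (0.28 to 0.31) and with slide as a fixed block (0.19), these groups lying on different slides. With slide as a random block, whose estimated correlation was -0.062, 10 members passed, beside 15.4% of all genes. At an unadjusted p under 0.05 there were 13 members, beside 20.5% of all genes.

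Tat+/Meth against Tat-/Sal again had no member and no gene that passed (0.0%), with member values between -0.20 and 0.23 and a median of -0.028. At an unadjusted p under 0.05 there were 4 members with limma, beside 7.79% of all genes, and 6 beside 9.19% with the methods' t-test. The smallest p belonged to Mrpl19 (-0.13 ± 0.05, adjusted p = 0.64) and to Mrpl3, which has a bacterial counterpart (-0.20 ± 0.08, adjusted p = 0.64). Within slide 2, where 3 Tat+/Meth arrays lay beside all Tat-/Sal arrays, no member passed.

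The interaction, which subtracts the Meth effect of Tat- mice from that of Tat+ mice, passed for 35 members. On scaled values 4 were higher and 31 lower, beside 12.4% and 23.6% of all genes, with a member median of -0.17 against -0.14. Without scaling 34 were higher and 0 lower (limma, the same threshold), with a median of 0.31 against 0.35. Mrpl2 (1.51 ± 0.19, adjusted p = 6.64e-06) was the only member that passed with a change above 2-fold, as 7.44% of all genes did. Mrpl1 followed at 0.71 ± 0.11 (adjusted p = 8.84e-05). The lowest were Mrps5 at -0.72 ± 0.12 (adjusted p = 0.000117) and Mrps15 at -0.66 ± 0.07 (adjusted p = 4.47e-07), neither of which passed without scaling (-0.23 and -0.18). The interaction holds the Tat-/Meth arrays and so slide 1.

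**Figure D5:**
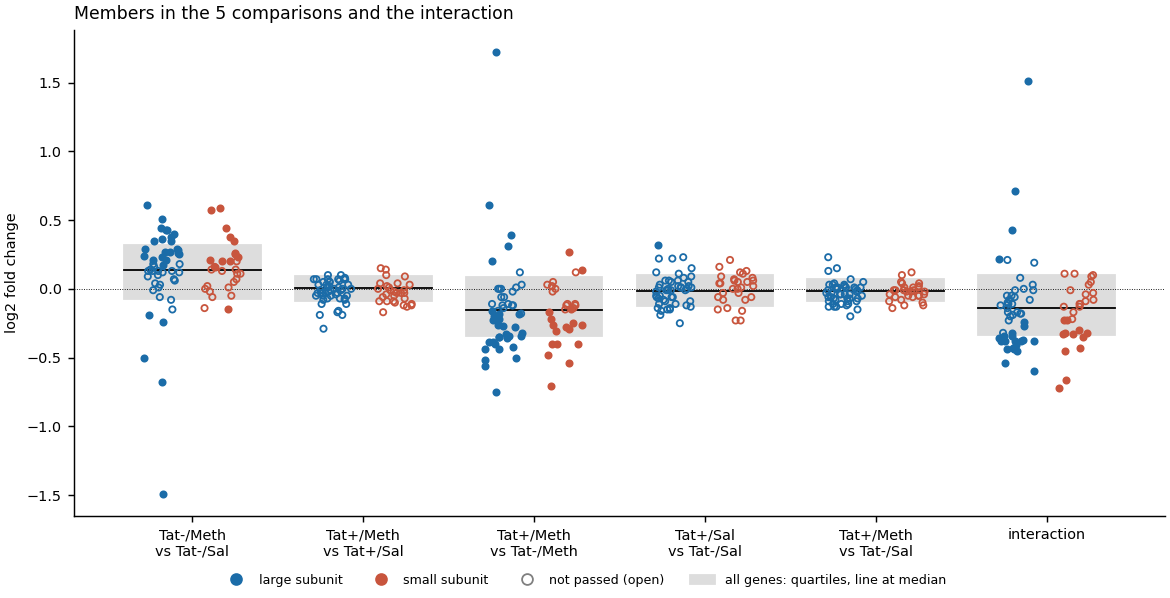
The log2 fold change of each member in the 5 comparisons and the interaction, large subunit (blue) and small subunit (red), filled where an adjusted p under 0.05 was reached, over the quartiles (grey) and the median (line) of all genes tested. The members follow the median of all genes, and their spread away from 0 is found in the 3 contrasts that hold the Tat-/Meth arrays, whose medians turn their direction without scaling.

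Other genes of mitochondrial translation, listed by name, were counted in Tat-/Meth against Tat-/Sal beside the same background. Of 66 tested 33 were higher and 3 lower, with a median of 0.19. Of all genes 35% were higher and 15.3% lower, with a median of 0.14. In either direction 54.5% of the 66 passed, against 50.2% of all genes. The mitochondrial aminoacyl-tRNA synthetases with the amidotransferase had 12 higher and 0 lower of 20 and a median of 0.26, led by Gatc at 0.74 (adjusted p = 8.06e-08), a subunit of the amidotransferase. Of 13 translation factors 8 were higher and 0 lower (median 0.20), among them the initiation factor Mtif3 at 0.55 (adjusted p = 1.32e-05). Of 22 assembly and rRNA factors 7 were higher and 2 lower (median 0.086), with the rRNA methyltransferases Nsun4 at 0.75 (adjusted p = 5.87e-08) and Mrm3 at -0.38 (adjusted p = 3.43e-05) at the ends of those that passed. Of 6 genes of mitochondrial transcription and mRNA 3 were higher (median 0.13), among them Tfam, which packages mitochondrial DNA, at 0.21 (adjusted p = 0.00453). Of the 5 ribosomal proteins named otherwise 3 were higher and 1 lower, Aurkaip1 at -0.43 (adjusted p = 0.000311). These directions are those of scaled values, and none of the 66 passed 2-fold. Without scaling every value shifts by -0.42, which turns that of Tfam negative.

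The 2 comparison families stood lower on the same scale, where 35% of all genes were higher and 15.3% lower. The 79 cytosolic ribosomal proteins tested had 19 higher and 22 lower and a median of 0.004, and the 37 complex I subunits had 9 higher and 2 lower and a median of 0.036. Relative to the median of all genes these medians were -0.14 and -0.10, against 0.016 for the members. In Tat+/Meth against Tat-/Meth, which shares the Tat-/Meth arrays, they were 0.20 and 0.105, against -0.027 for the members. These are descriptions of 3 lists, and the difference between them was not tested.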

How the data were processed

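RNA of 20 mice (caudate putamen by the methods, left hemisphere by the labels) was hybridised to 20 one-colour arrays. The authors deposited scanner output as background-corrected intensity per spot (Cy3 by the labels, Cy5 by the methods), and a value table of intensities from the same arrays. Control and outlier spots were left out, spots of a probe averaged, and log2 of the deposited intensity put on a common scale by subtracting the array's 75th percentile. Probes took gene symbols from their RefSeq accession, and genes with a group mean of at least 6 log2 units were tested with limma 3.58.1 (R 4.3.3) over all 4 groups, with Benjamini-Hochberg adjustment over 15102 genes. Tables and figures used Python 3.11.15, pandas 2.3.3 and matplotlib 3.10.9, and random blocks statmod 1.5.0. Scripts were tested on simulated data. The number of arrays limits the precision.

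The members and lists were chosen with earlier results of these data known. Named members were the 3 that rose and the 3 that fell most per subunit in Tat-/Meth against Tat-/Sal, the 2 most changed each way in other contrasts (or the 2 with the smallest p), those past 2-fold, those with opposed probes, and 8 by role. Mrpl17 and Mrpl4 are named as the remaining large subunit members that passed lower in that comparison, and Mrpl21 for its signal. Other members named are said to be so by their probes, correlation or promoter. Alternatives were other scalings (quantile, median, none), normexp correction with an offset of 50, the value table, other filters, probe means, slide or replicate blocks, single slides, 2 groups alone, the methods' t-test, stricter limits and each array left out.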

Additional observations from a re-analysis of the deposited data

Results flagged for a closer look

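Single arrays stood away from the other 4 of their group in 5 of 100 groups of 5 values examined, and chance gives about 1 in 20. In Tat+/Meth the highest value of Mrpl19 was 11.57 (replicate 2), of Mrpl38 11.45 (replicate 5) and of Mrpl42 11.50 (replicate 2), and the lowest of Mrps18a was 13.32 (replicate 4). In Tat-/Meth replicate 5, 70.8% of the probes were well above background, the highest share in the group.

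The effect of Meth differed between Tat+ and Tat- mice by the interaction term for 15 named members on scaled values. Many of these were named for large changes in this term or in contrasts that share its arrays, so their number is no measure of the family. Over all 77 members tested 35 passed (45.5%), beside 36% of all genes. The interaction term was positive for Mrpl2 (1.51), Mrpl1 (0.71) and Mrpl18 (0.43). It was negative for Mrps5 (-0.72), Mrps15 (-0.66), Mrpl42 (-0.60), Mrpl41 (-0.54), Mrpl34 (-0.45), Mrps6 (-0.45), Mrpl12 (-0.44), Mrpl58 (-0.43), Mrps12 (-0.43), Mrpl28 (-0.38), Mrpl10 (-0.34) and Mrpl38 (-0.34). Without scaling 8 of the negative values turned positive, Mrpl34 (0.04), Mrps6 (0.04), Mrpl12 (0.04), Mrps12 (0.05), Mrpl58 (0.06), Mrpl28 (0.10), Mrpl10 (0.15) and Mrpl38 (0.15). The term holds the Tat-/Meth arrays, and slide 1 with them.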

How the results depend on the processing

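Scaling decided the family's direction in the 3 contrasts with Tat-/Meth. For Tat-/Meth against Tat-/Sal, median scaling gave 16 members passed (14 higher, median 0.278), and no scaling gave 0 higher, 2 past 2-fold and a median of -0.266, while the stricter limits left 0 past the fold. For Tat+/Meth against Tat-/Meth, median scaling gave 30 passed (2 higher, median -0.338) and no scaling 26 (25 higher, median 0.159). For the interaction, median scaling gave 5 passed (1 higher, median -0.403), and no scaling 34 higher, 2 past 2-fold and a median of 0.314, with 0 past the stricter fold. Of all genes, 28.1%, 39.3% and 17% passed in these contrasts with median scaling and 48%, 37.1% and 39.4% with none. With normexp the member median less that of all genes was -0.071, 0.034, 0.041 and, for Tat+/Sal against Tat-/Sal, -0.04. The cause was not tested.

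For Tat+/Sal against Tat-/Sal, 2 members passed after quantile normalization, beside 3.23% of all genes, and 10 with slide as a random block, beside 15.4%. There were 0 with median scaling (median 0.075), no scaling (median -0.145), normexp, the value table, no filter, slide as a fixed block, these 2 groups alone, the stricter limits and the methods' t-test adjusted, which gave 15 unadjusted, beside 18.7% of all genes. For Tat+/Meth against Tat+/Sal the medians were -0.132 with median scaling and 0.042 with none, and the t-test gave 10 members unadjusted. For Tat+/Meth against Tat-/Sal the median was -0.111 with no scaling, and the t-test gave 6 unadjusted.

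With the replicate number as a block, 46 members passed in Tat-/Meth against Tat-/Sal (40 higher), beside 52.6% of all genes, and 3 in Tat+/Sal against Tat-/Sal, beside 3.66%. Between groups, residuals of arrays with the same number correlated between -0.176 and 0.354 (median 0.044). For arrays with different numbers they correlated between -0.35 and 0.279 (median -0.013). Whether the numbers pair any mice cannot be told from these correlations.

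In Tat-/Meth against Tat-/Sal, no scaling reversed Mrpl10 (-0.16), Mrpl12 (-0.14), Mrpl28 (-0.32), Mrpl3 (-0.28), Mrpl38 (-0.26), Mrpl58 (-0.07), Mrps12 (-0.04), Mrps18a (-0.40), Mrps18b (-0.35), Mrps18c (-0.22) and Mrps36 (-0.19). Mrps18a also reversed with normexp (-0.04), quantile normalization (-0.01), the value table (-0.02) and without Tat-/Sal replicate 1 (-0.01), Mrpl19 with normexp (0.03) and median scaling (0.04), and Mrps23 with the probe mean (0.26). Of the alternatives of named members, 1097 kept direction and side of the threshold, 51 lost the call, 19 gained it and 18 reversed. This count includes the fits with each array left out, which differ little from the main fit. With no scaling alone, 13 kept both, 10 lost the call, 2 gained it and 11 reversed.

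Leaving out each array in turn gave 37 to 43 members passed in Tat-/Meth against Tat-/Sal and 42 to 49 in Tat+/Meth against Tat-/Meth. It gave 0 to 2 in Tat+/Sal against Tat-/Sal and 33 to 36 in the interaction. With all arrays in, 50.2%, 54.4%, 1.42% and 36% of all genes passed in these contrasts, in this order. The shares of all genes with an array left out are not given here, so the ranges say nothing particular to the members. Signal over background limited Mrpl21 alone among the members.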
